A study of Ovis aries with 49 samples.

Results

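The genes described here encode the extracellular matrix of fetal sheep tissue and the receptors that attach cells to it. They were chosen by symbol from the allele-count lists of 45 fetal libraries: autosomal genes named as a numbered LTBP, FBN, FBLN, LAMA, LAMB, LAMC, ITGA, ITGB, ADAMTS, TIMP or collagen chain, and AGRN, FN1, FRAS1 and HSPG2. This gave 76 genes of the 7164 in the lists, of which 6885 were autosomal. COL4A5 and COL4A6 also carry such names but lie on X and were left out. By function 74 of the 76 fitted the name. COL4A3BP encodes a ceramide transfer protein and ITGB1BP1 a protein that binds the tail of an integrin, and both are in the set through their symbols only.

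The extracellular matrix is a mesh of collagens, laminins, proteoglycans and elastic microfibrils that cells secrete around themselves. Laminins and network collagens form the basement membrane under epithelia and around vessels, fibrillar collagens give tensile strength, and LTBP and fibrillin proteins build microfibrils, on which some of them hold growth factors of the TGF-beta family. Cells grip the mesh through integrins, pairs of an alpha and a beta chain, and ADAMTS proteases and TIMP inhibitors set how fast it is remodelled. In fetal kidney and lung the basement membrane guides the branching of the epithelium.

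The series asked which genes of fetal sheep are expressed unequally from the parental chromosomes and whether the energy intake of the ewe alters this. The dams were Western white-faced ewes and the sires 4 Dorset rams. Starting on day 30 of gestation the dams received 140% (overfed), 60% (restricted) or 100% (control) of the energy, as total digestible nutrients, advised for a twin pregnancy. On day 135 the lung, kidney and brain of 4 overfed, 4 restricted and 7 control fetuses were collected and their messenger RNA sequenced. Control fetuses 1, 5 and 7 share a number in the labels, as do control fetuses 4 and 6, and these were treated as littermates, so that each diet had 4 ewe numbers. The cross ran in 1 direction only, so paternal alleles are Dorset and maternal alleles Western white-faced throughout. Control fetuses came from 2 of the 4 rams.

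For each single-nucleotide polymorphism (SNP) at which the ram was homozygous and the fetus heterozygous, the lists give the RNA reads with the paternal and with the maternal base. They hold only SNPs with at least 20.5 reads and at least 70.02% of them on 1 allele. SNPs with even expression are thus missing by construction. The paternal share of a single SNP lies below 30% or above 70%, and a gene falls between these limits through SNPs that disagree in side. The listed reads of a library summed to between 31581 and 194732 in lung, between 6530.5 and 71952.5 in kidney and between 10477 and 82301 in brain. Of 10 markers each, 1 lung marker (SLC34A2) was listed in lung, 6 kidney markers in kidney (UMOD in 5 libraries) and 4 brain markers in brain (NEFM in 5), but markers were also listed in other tissues. Of the brain markers MAP2 was listed in 6 lungs, 3 kidneys and 1 brain and STMN2 in 3 lungs and no brain, 3 kidney markers were listed in lung and 2 in brain, and the lung marker ABCA3 was listed in 1 brain only. The labelled tissues could thus be checked only in part. Of 5 fibroblast markers 2, 2 and 1 were listed in lung, kidney and brain, of 4 endothelial markers 3, 3 and 2, and of 4 blood markers none in any tissue. No strand-specific step is named for the libraries, so reads of overlapping genes cannot be told apart.

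The 76 genes had 530 listed entries, each 1 SNP in 1 library, at 309 distinct SNPs. Lung held 262 entries from 56 of the genes, kidney 197 from 52 and brain 71 from 30. The father's base was known and the fetus heterozygous at 7704 fetus and SNP pairs in genes with such names, and the listed share of these was 3.40% in lung, 2.56% in kidney and 0.922% in brain, against 3.46%, 2.49% and 2.09% over all autosomal genes. Members were thus listed less often than autosomal genes at large in brain, a difference that was not tested. An unlisted SNP can be balanced or too thinly covered, and the lists do not separate these cases. A further 31 autosomal genes with such names were informative in at least 1 fetus and never listed.

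Laminins had the most entries, 91 over 10 genes, and LTBP, fibrillin and fibulin genes had 70 over 8. ADAMTS proteases, with 11 genes the group with the most members, had 31 entries in lung, 17 in kidney and 2 in brain. Collagens outside the fibrillar, fibril-associated and basement membrane classes had 30, 15 and 0. TIMP2, the 1 member of its group, was listed about equally, 10, 11 and 11 times. Listing was thin for most genes: 23 were listed in a single fetus, 18 by a single entry, and 7 in at least 10 fetuses.

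**Figure D1:**
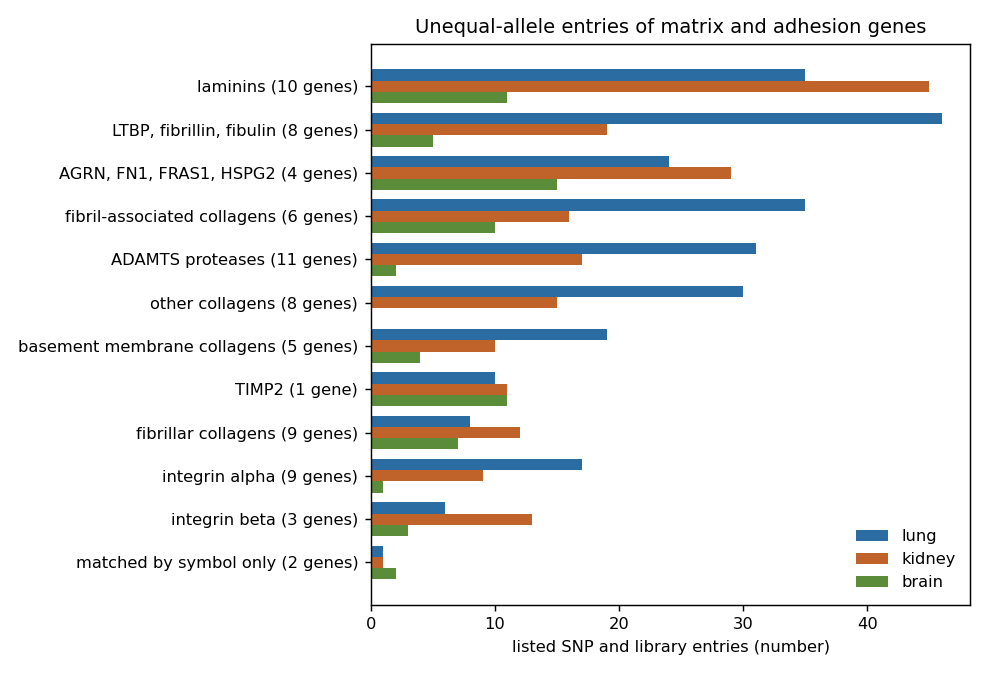
Number of listed entries (1 SNP in 1 library each) per group of genes, with 1 bar for lung, kidney and brain over 15 libraries each. Laminins lead in kidney with 45 entries and the LTBP, fibrillin and fibulin group in lung with 46, and TIMP2 has 10 or 11 entries in each tissue.

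Parental bias was tested per tissue with limma on the natural-log ratio of paternal to maternal reads of a gene (0.5 read added to each), for each gene with 3 or more listed fetuses. P-values were adjusted by the Benjamini-Hochberg method across every gene tested in that tissue. In lung 14 of 28 tested members were called at an adjusted p under 0.05, 4 towards the father and 10 towards the mother, where 60.9% of all tested genes were called, 21.7% towards the father and 39.2% towards the mother. In kidney 7 of 20 were called, 2 paternal and 5 maternal, against 66% of all genes, 22% and 44%. In brain 4 of 6 were called, 1 paternal and 3 maternal, against 65.5%, 20.9% and 44.6%. Over the tissues 25 of 54 member tests were called, against 63.6% of all tests. All tested genes include those on X, while the members are autosomal. The background is high because every listed SNP is unequal by the filter, so these counts say only how many genes lay on the same side in their listed fetuses. In kidney and lung the members' share of calls was below that background, and this difference was not tested. The median log ratio over tested members was -0.23 in lung, -0.19 in kidney and -0.71 in brain, against -0.42, -0.55 and -0.58 over all tested genes.

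Counted by gene, 35 members were tested and 17 called in at least 1 tissue. The test could be made in all 3 tissues for 5 members, and 3 of them were called in all: AGRN, LTBP3 and TIMP2, each with lower paternal reads. Such counts by gene were not made over all genes, of which 60.9% to 66% were called per tissue, so they set no member apart. Of 54 member and tissue combinations with at least 3 fetuses, 20 (37.0%) had every fetus on the same side, against 60.5% over all autosomal genes. Entries with the paternal reference base lay on the paternal side in 41.4% of 372 cases and those with the paternal alternative base in 44.9% of 158, close to the 41.7% of all autosomal entries for the reference base and below their 49% for the alternative base, without a test.

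**Figure D2:**
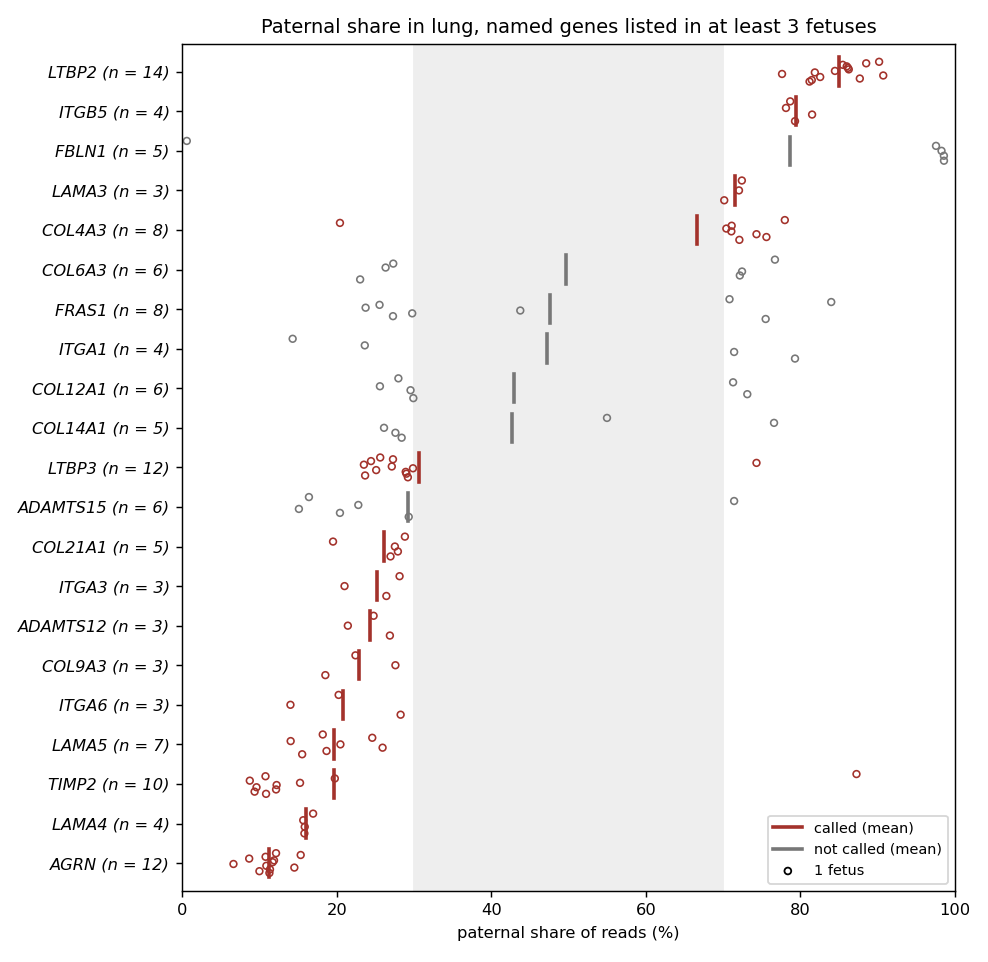
Paternal share of reads in lung (percent, x axis) for the genes listed in at least 3 fetuses that were called or named by the rule in the methods, with 1 circle per fetus, the mean as a vertical line, called genes in red and the 30% to 70% range that a single SNP cannot take shaded. AGRN, LAMA4, TIMP2 and LAMA5 lie lowest and LTBP2 and ITGB5 highest, while the uncalled genes shown have fetuses on both sides.

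Among the basement membrane proteoglycans, AGRN (agrin, which also clusters acetylcholine receptors at the nerve-muscle synapse) had more maternal than paternal reads in every listed fetus of every tissue. In lung its paternal share ran from 6.62% to 15.3% with a median of 11.3% in 12 fetuses, in kidney from 7.89% to 20.4% with a median of 11.8% in 12, and in brain from 8.55% to 39.3% with a median of 23.7% in 9. No fetus reached 50% in any tissue. The mean was 11.3% ± 2.31 (SD, n = 12) in lung, 11.9% ± 3.33 (n = 12) in kidney and 24.3% ± 8.19 (n = 9) in brain, with adjusted p of 1.87e-10, 9.33e-10 and 1.68e-04. Behind these were 130.5 to 709.5 reads per SNP and fetus in lung, 38.0 to 259.5 in kidney and 30.5 to 117 in brain.

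AGRN was also the 1 member whose share was called as different between tissues. On the log-ratio scale lung minus brain was -0.90 ± 0.16 (SE, adjusted p = 4.51e-05) and kidney minus brain -0.83 ± 0.15 (adjusted p = 1.84e-04). It was 1 of 5 members tested in each of these comparisons, where 15.0% and 11.6% of all genes were called, and over all 3 comparisons 7.81% of all tests were. With the fetus as a replicate block both calls remained (adjusted p = 2.77e-04 for lung and 0.00107 for kidney). With only SNPs listed in both tissues they also remained (0.0169 and 0.0222). With both settings together, an analysis added after the data were seen, the kidney difference became -0.73 and was no longer called (adjusted p = 0.0509). The lung difference was then -0.64 (adjusted p = 0.0276). Lung minus kidney was -0.07 ± 0.14 (adjusted p = 0.940), and 0 of 14 members were called in that comparison (2 at an unadjusted p under 0.05), where 0.407% of all genes were.

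Only 1 AGRN SNP was listed in several fetuses of all tissues with the order of that call. At C49428488A on chromosome 12 (reference base, position along the chromosome, alternative base), heterozygous in 9 fetuses, the 6 fetuses listed in all 3 tissues had 10.8% to 11.9% paternal reads in lung, 7.09% to 11.4% in kidney and 20.5% to 28.8% in brain. Lung minus brain was -17.5 to -9.20 percentage points and kidney minus brain -20.9 to -11.03, lower than brain in 6 of 6 fetuses both times. At C49434731G, on the same chromosome and heterozygous in 3 fetuses, the order was the other way round: control fetus 4 had 14.5% in lung, 14.4% in kidney and 9.38% in brain, and restricted fetus 4 had 16.9%, 9.72% and 8.55%. At all 5 listed AGRN SNPs the father carried the reference base, so parent and base cannot be told apart. In brain of control fetus 4, C49433377G, which was heterozygous in all 15 fetuses, had 72.4% paternal reads, on the other side from C49434731G in the same library.

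Of the other large matrix proteins, FRAS1, which anchors embryonic epithelia to the basement membrane, had fetuses on both sides in every tissue, at 22 SNPs. Its share was 47.5% ± 25.2 (n = 8) in lung, 40.8% ± 24.1 (n = 6) in kidney and 59.0% ± 27.5 (n = 4) in brain, with adjusted p of 0.848, 0.401 and 0.616. With at least 30 reads per SNP the lung value was 26.2% and was called (adjusted p = 0.00505). Restricted fetus 1 was on the maternal side in all 3 tissues (25.5%, 29.5% and 17.9%) and restricted fetus 2 on the paternal side in all 3 (84.0%, 71.8% and 70.8%). In brain the 3 listed fetuses other than restricted fetus 1 stood at 70.8% to 76.2%, and without restricted fetus 1 FRAS1 was called there (72.6%, adjusted p = 0.0113). FN1 (fibronectin) and HSPG2 (perlecan) were listed in 1 and 2 fetuses.

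In the microfibril group LTBP2, a latent TGF-beta binding protein family member of elastic tissue, was paternal throughout. It was listed in lung only, in 14 fetuses, at 77.6% to 90.7% with a median of 85.8%, and all 14 lay on the paternal side (85.0% ± 3.73, SD, n = 14, adjusted p = 1.87e-10). The value came from T82650252C on chromosome 7, heterozygous in 14 of the 15 fetuses and with the reference base on every paternal allele, at 81.5% to 90.7%. A second such SNP, C82660777T, was listed in 2 fetuses at 84.8% and 85.4%. Without SNPs heterozygous in at least 10 fetuses LTBP2 stood at 56.4% and was not called (adjusted p = 0.803), from the 3 other SNPs at 17.5%, 75.0% and 76.8% in 1 fetus each.

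LTBP3, which binds latent TGF-beta, lay on the other side. Its share was 30.7% ± 13.9 (n = 12) in lung, 26.2% ± 2.76 (n = 7) in kidney and 22.7% ± 2.65 (n = 3) in brain, with adjusted p of 8.89e-04, 1.28e-05 and 0.00778. In the 3 brains it was 19.6%, 24.1% and 24.2%. All but 1 of these values came from C42919660T on chromosome 21, heterozygous in all 15 fetuses with the reference base on every paternal allele, at 23.5% to 29.9% in lung, 23.4% to 29.9% in kidney and 19.6% to 24.2% in brain. These shares stand close to the 30% at which listing ends. The exception was the lung of overfed fetus 4, which was listed through T42927713C alone, at 74.3% from 37.0 reads, and without this fetus the lung mean was 26.7%. T42927713C was also heterozygous in all 15 fetuses. Without SNPs heterozygous in at least 10 fetuses LTBP3 therefore had no value to test in any tissue.

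FBLN1 (fibulin-1, a glycoprotein of elastic fibres and basement membranes) had at least 97.6% or at most 0.694% paternal reads in every listed fetus, and the side followed the base. At A219758908C on chromosome 3, the 1 listed FBLN1 SNP, control fetuses 1, 5 and 7 and overfed fetus 2 received the reference base from the father and had 98.5%, 98.7%, 98.2% and 99.4% paternal reads in kidney and 98.6%, 98.6%, 98.3% and 97.6% in lung. Restricted fetus 1 received the alternative base from the father and had 0.694% in kidney and 0.585% in lung, from 72.0 and 85.5 reads (exact 95% Clopper-Pearson intervals from 0 to 4.99% and from 0 to 4.25%). In all 5 fetuses nearly every read thus carried the reference base, whichever parent it came from. Pooled over fetuses the gene was not called (79.1% ± 43.8 in kidney, adjusted p = 0.216, and 78.7% ± 43.7 in lung, adjusted p = 0.297, n = 5 each), and without restricted fetus 1 it was (98.7% and 98.3%, adjusted p = 1.57e-04 and 3.67e-05). The 4 fetuses with a paternal reference base had the same ram, and 3 of them were littermates. Intervals and limits on read counts cover counting error only, since no molecular identifiers are named for the libraries.

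TIMP2, an inhibitor of matrix metalloproteinases, was listed at 3 SNPs. At 1 of them the higher reads were also on the same base in fetuses with either paternal base. At A52447633G on chromosome 11 restricted fetus 2, with the reference base from the father, had 87.3%, 86.3% and 84.3% paternal reads in lung, kidney and brain (95% intervals 81.4% to 92.2%, 77.1% to 93.5% and 73.6% to 91.9%). The fetuses with the alternative base from the father had 8.74% to 19.8% in lung (9 fetuses), 10.4% to 16.8% in kidney (8) and 11.6% to 22.2% in brain (9). At this SNP the groups do not overlap in any tissue, and the reference base had the majority of reads in every one of these fetuses. TIMP2 was nevertheless called as maternal, at 19.6% ± 24.004 (n = 10, adjusted p = 0.00372) in lung, 26.5% ± 25.7 (n = 9, adjusted p = 0.0253) in kidney and 22.7% ± 21.9 (n = 10, adjusted p = 0.00416) in brain. Without restricted fetus 2 the means were 12.1%, 19.1% and 15.9%. At the other listed TIMP2 SNPs the alternative base had more reads. There a paternal reference base gave 28.2% in kidney and 27.4% in brain, and a paternal alternative base 75.6% in kidney. The highest control kidney stood at 51.1%, over SNPs on opposite sides. The kidney call was lost when any of 6 other fetuses was left out (adjusted p from 0.0537 to 0.0588) and when littermates were averaged (0.0657).

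**Figure D3:**
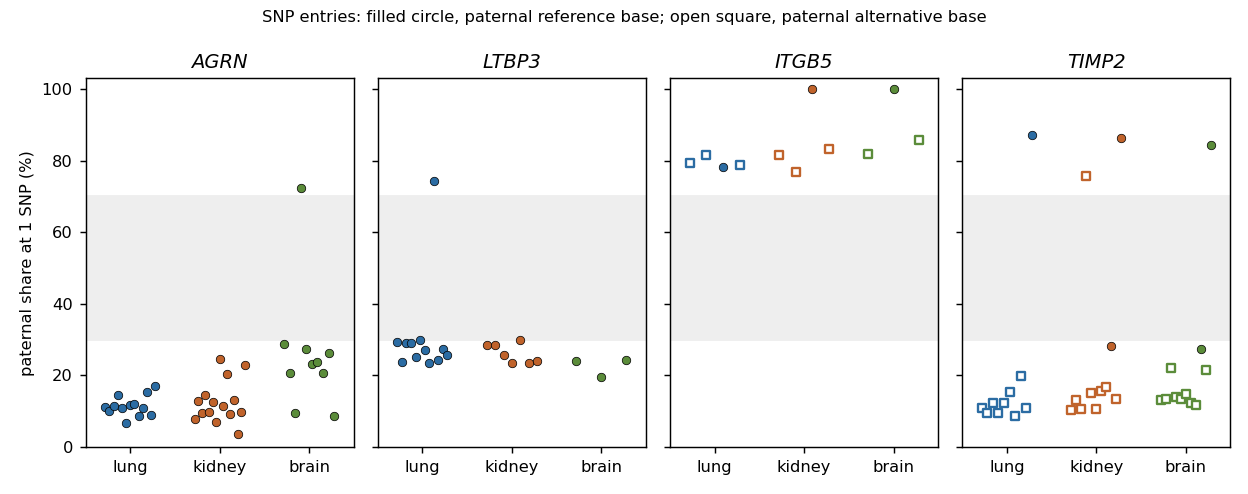
Paternal share at single SNPs (percent, y axis) of AGRN, LTBP3, ITGB5 and TIMP2 in lung, kidney and brain, 1 point per fetus and SNP, filled circles for a paternal reference base, open squares for a paternal alternative base, and the unlisted 30% to 70% range shaded. The TIMP2 circles at 84.3% to 87.3% are restricted fetus 2, whose father carried the other base, and most AGRN points are higher in brain than in lung and kidney. The TIMP2 circles at 27.4% and 28.2% and the open square at 75.6% come from other SNPs than A52447633G.

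Of the ADAMTS proteases, which cut proteoglycans and procollagens, 1 of 4 tested in lung and 1 of 2 tested in kidney were called. Over all tested genes 60.9% and 66% were. ADAMTS12 was at 26.9%, 21.4% and 24.8% in the 3 lungs that listed it (24.4% ± 2.74, adjusted p = 0.00744), 2 of them from littermates. ADAMTS15, which cuts aggrecan and versican, was at 14.3%, 28.6% and 18.5% in 3 kidneys (20.4% ± 7.35, adjusted p = 0.0107), all from restricted fetuses. In lung it was at 15.1% to 29.3% in 5 fetuses and at 71.4% in overfed fetus 3, and was called only without that fetus (20.8%, adjusted p = 5.94e-04, against 0.0526 with it). The 1 brain that listed ADAMTS15, of control fetus 5, was on the paternal side at 73.5%. ADAMTS16 in kidney ranged from 16% to 72.1% in 4 fetuses and stood at 100% in overfed fetus 4.

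Of the laminins, trimers of an alpha, a beta and a gamma chain, 3 of 4 tested in lung and 1 of 5 tested in kidney were called. Over all tested genes the calls were 60.9% in lung and 66% in kidney. LAMA4, the alpha chain of vessel laminins, was at 15.8%, 15.8%, 15.7% and 16.9% in the 4 lungs that listed it (16.1% ± 0.588, n = 4, adjusted p = 2.23e-04). All 4 values came from G25408692A on chromosome 8, heterozygous in these 4 fetuses, which gave 2.82% to 18.4% in 3 kidneys and 9.76% and 11.9% in 2 brains. In kidney overfed fetus 3 was listed through another SNP at 72.1%, and LAMA4 was called there only without it (13.03%, adjusted p = 0.0236, against 0.182 with it). LAMA5, the alpha chain of most epithelial laminins, was at 14.03% to 25.9% with a median of 18.7% in 7 lungs (19.6% ± 4.40, adjusted p = 1.98e-05), all at G54159753A on chromosome 13, heterozygous in these 7 fetuses. In kidney it was at 28.8% ± 21.05 (n = 6, adjusted p = 0.0431), with overfed fetus 2 at 70.5% through another SNP. That call was lost when any of 5 other fetuses was left out (adjusted p from 0.0809 to 0.111). LAMA3, of the laminin that anchors epidermis, was paternal in lung at 70.1%, 72.1% and 72.4% (adjusted p = 0.00983), just above the listing limit.

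LAMC3, a gamma chain, held 31 entries at 25 SNPs, the largest number of SNPs of any member. In kidney 4 fetuses were at 70.8% to 76.8% and overfed fetus 1 at 26.5% (64.8% ± 21.5, n = 5, adjusted p = 0.190, and 74.3%, adjusted p = 0.00157, without it). Overfed fetus 1 stayed on the maternal side in lung, at 22.9% over 10 SNPs, and in brain at 29.8%. LAMC1, the gamma chain of most laminins, was informative in 11 fetuses and listed in 1, overfed fetus 3, at 80.0%, 81.6% and 77.3% in lung, kidney and brain (95% intervals 75.4% to 83.9%, 71.7% to 89.8% and 54.6% to 92.2%).

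Among the integrins ITGB5, which pairs with the alpha V chain to bind vitronectin, was above 75% in every listed fetus of all 3 tissues. In lung it was 79.3%, 81.5%, 78.7% and 78.1% (79.4% ± 1.48, n = 4, adjusted p = 5.85e-04), and in kidney 81.5%, 76.9%, 83.2% and 100% (85.4% ± 10.1, n = 4, adjusted p = 0.0678). In brain it was 81.9%, 85.7% and 100% (89.2% ± 9.53, n = 3, adjusted p = 0.0369). Either base occurred on the paternal allele, but at different SNPs: G187336968A on chromosome 1 with the alternative base in 4 fetuses of the same ram, and A187307339C with the reference base in overfed fetus 4. Overfed fetus 4 had 159 paternal and 0 maternal reads in kidney, which allows a maternal share of up to 1.89%, 26 and 0 in brain, which allows up to 11.5%, and 84 and 23.5 in lung. Without this fetus the kidney call was made (80.6%, adjusted p = 0.00412), the lung call remained (79.8%, adjusted p = 0.00326) and brain had too few fetuses for a test.

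Overfed fetus 4 stood apart in this respect. All 5 member entries with 0 reads on an allele were its own, in ITGB5, LAMA1 (brain and kidney) and ADAMTS16 (kidney), and in all 5 the maternal allele had 0 reads. Over all autosomal genes 3% of its entries had 0 reads on an allele, against 0.296% to 1.3% in the other fetuses, and its libraries held 87 of the 255 entries with 0 maternal reads. Over all autosomal genes the excess was in kidney (5.13%) and lung (3.24%) and not in brain (0.814%). Its member entries had another pattern, with 0 maternal reads in 0 of 13 in lung, 3 of 13 in kidney and 2 of 8 in brain.

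The alpha chains ITGA3 and ITGA6, both part of laminin receptors, were maternal in lung, at 25.2% ± 3.72 and 20.8% ± 7.15 (n = 3 each, adjusted p = 0.00983 and 0.0132). The father carried 1 base only in each. ITGA3 was listed at 1 SNP, heterozygous in 13 fetuses, and had no value without SNPs heterozygous in at least 10 fetuses. ITGA1, a collagen receptor chain, had 2 lungs at 71.4% and 79.3% and 2 at 14.3% and 23.6% (adjusted p = 0.839), and ITGA8, a chain that the ureteric bud of mice needs to grow out, had 2 kidneys at 71.4% and 73.4% and 2 at 24% and 27.6% (adjusted p = 0.944).

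Among the collagens COL4A3, a chain of the glomerular and alveolar basement membrane, was on different sides in the 2 tissues where it was tested. In lung 7 of 8 fetuses were at 70.4% to 78.0% and restricted fetus 3 at 20.4% (66.6% ± 18.9, n = 8, adjusted p = 0.0481), while in kidney 4 of 5 were at 24.4% to 29.1% and control fetus 4 at 74.5% (36.5% ± 21.3, n = 5, adjusted p = 0.225). The difference between lung and kidney was 1.27 ± 0.45 on the log-ratio scale and did not pass the adjustment over all genes (adjusted p = 0.408). Control fetus 2, overfed fetus 2 and overfed fetus 4 were listed in both tissues, with 72.1%, 74.3% and 71.1% in lung and 24.4%, 27.7% and 26.7% in kidney, at different SNPs of the gene. The lung call was lost when any of 7 fetuses was left out (adjusted p from 0.0904 to 0.106), and without control fetus 4 the kidney was called (26.97%, adjusted p = 0.00180).

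The fibril-associated collagens, which coat collagen fibrils, went both ways. COL21A1 was maternal in 5 lungs at 19.5% to 28.8% (26.1% ± 3.77, adjusted p = 6.16e-04) and COL9A3 in 3 lungs at 18.5% to 27.6% (22.8% ± 4.55, adjusted p = 0.00886). The 1 listed COL9A3 SNP was heterozygous in 10 fetuses, so COL9A3 had no value without such widespread SNPs. COL12A1 was paternal in 3 kidneys at 73.2%, 72.1% and 73.0% (72.8% ± 0.579, adjusted p = 0.00739), mixed in 6 lungs (42.9% ± 22.8, adjusted p = 0.544) and at 25.9% and 27.9% in 2 brains. Its 3 kidney values came from different SNPs and lay just above the listing limit, which narrows their spread. The difference of COL12A1 between lung and kidney was -1.23 ± 0.50 on the log-ratio scale (adjusted p = 0.589). COL14A1, with 28 entries, was mixed in kidney and lung (adjusted p = 0.515 and 0.551). Of 80 pairs of a member gene and a library with several listed SNPs, 72 had all SNPs on the same side (90.0%, against 83.4% over all autosomal genes), and COL14A1 gave 2 of the 8 exceptions.

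Of the fibrillar collagens COL11A1 was paternal in 5 kidneys at 70.3% to 78.2% (73.1% ± 3.31, adjusted p = 5.44e-04), each at a different SNP. Restricted fetus 1, overfed fetus 2 and overfed fetus 4, at 70.3%, 70.9% and 71.3%, lay just above the listing limit, which narrows the spread. Control fetuses 4 and 3 were at 74.6% and 78.2%. A listed SNP is never balanced, so the call shows only that all 5 fetuses lay on the paternal side. COL3A1, a collagen of extensible tissues, had the deepest entries: 1736.5 reads in the lung of overfed fetus 4, with 26.8% paternal reads (95% interval 24.7% to 28.9%), and 845 in the lung of control fetus 2, with 27.3% (24.4% to 30.5%). Both fetuses gave 29.3% and 29.0% in kidney. In brain overfed fetus 4 had 26.7%, restricted fetus 4 had 26.8% and control fetus 3 had 77.7%. COL6A3, of the beaded microfibrils, was mixed in lung (49.7% ± 26.5, n = 6, adjusted p = 0.980), and in kidney 3 fetuses at 72.1% to 75.5% stood against overfed fetus 2 at 28.1% (adjusted p = 0.355, and 0.00629 without it). COL6A5 was paternal in each of the 4 fetuses that listed it, at 70.5% and 83.7% in kidney and 83.7% and 83.9% in lung, too few per tissue for a test. COL4A3BP and ITGB1BP1, the 2 genes without a matrix role, had 3 entries and 1.

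The remaining members had few listed fetuses, and their values are a description. Of those listed in all 3 tissues, COL15A1, a vessel-wall collagen, was maternal throughout, at 16.1% and 17.8% in lung, 7.55% in kidney and 25.5% in brain, and FBN3, a fibrillin, was paternal throughout, at 73.7% in lung, 79.9% in kidney and 70.2% in brain. ADAMTS13, the protease of von Willebrand factor, was at 19.6% in 1 lung and 19.5% in 1 kidney, the kidney value over 4 SNPs. COL1A1 and COL1A2, the chains of type I collagen, were each listed in 1 brain, at 76.7% and 77.8%, and in neither lung nor kidney. ITGB6, an epithelial integrin chain, was at 46.2%, 81.8% and 73% in 3 kidneys (adjusted p = 0.186), the first from SNPs on opposite sides. At least 95% of the reads were on 1 allele in 17 member entries from 6 genes (3.21% of entries, against 3.44% over all autosomal genes): ADAMTS16, AGRN, FBLN1, ITGB5, LAMA1 and LAMA4.

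At some SNPs fetuses of one ram had the reference base from the father and fetuses of another ram the alternative base, which separates parent from base. There were 9 such cases at 5 member SNPs, in TIMP2, FBLN1, ITGA1, ITGA8 and COL4A3. In 8 of the 9 the higher allele followed the base (88.9%, 95% Clopper-Pearson interval 51.8% to 99.7%), and over all autosomal genes it did so in 224 of 246 (91.1%, 86.8% to 94.3%). The 3 tissues of a fetus share its genotype, so these cases are not independent. The 1 case that followed the parent was G228555135A of COL4A3 in kidney, at 26.7% in overfed fetus 4 (paternal reference base) and 29.7% in overfed fetus 2 (paternal alternative base), while in lung the same SNP followed the base, at 71.1% in restricted fetus 2 and 20.4% in restricted fetus 3. Tested members were also split by whether fathers carried 1 base or both over all listed SNPs of the gene in a tissue. Both bases can then come from different SNPs, as in ITGB5, so this split does not separate parent from base. Of members seen with 1 paternal base only, 7 of 10 were called in lung, 4 of 7 in kidney and 2 of 3 in brain, and of those seen with both, 7 of 18, 3 of 13 and 2 of 3. Over all autosomal genes the calls were 77.4%, 78.4% and 79.6% with 1 base and 37.4%, 43.6% and 39.0% with both.

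The same SNP in the same fetus gave the same side in each tissue where it was listed in 55 of 55 member cases (97.7% over all autosomal genes), and littermates with the same paternal base did so in 23 of 24 (98.5%). Across litters a SNP with the same paternal base kept its side in 58 of 64 (90.6%, against 94.2%).

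Read depth at the listed SNPs is the only view of level in these lists. It was compared between tissues within a gene as the log2 of 1 plus the gene's mean reads per SNP, scaled per library on 153 widely listed genes, with limma and adjustment over all genes. In the whole RNA of a tissue, fewer cells of a type and less RNA per cell cannot be told apart. Between lung and kidney 6 of 14 tested members were called, 4 higher and 2 lower in lung, against 20.3% of all genes, 10.2% each way. Between lung and brain 3 of 5 were called, 2 higher and 1 lower in lung, against 41.2%, 15.0% and 26.2%. Between kidney and brain 4 of 5 were called, 3 higher and 1 lower in kidney, against 33.3%, 13.5% and 19.8%. Over the 3 comparisons 13 of 24 member tests were called, against 30.1% of all tests. AGRN averaged 7.91 in lung, 7.29 in kidney and 6.25 in brain, and was higher by 1.66 ± 0.18 (SE) in lung than in brain (adjusted p = 1.53e-09), by 1.03 ± 0.18 in kidney than in brain (adjusted p = 1.73e-05) and by 0.63 ± 0.16 in lung than in kidney (adjusted p = 0.00533). Its values ran from 7.39 to 8.27 in lung, 6.45 to 7.86 in kidney and 5.64 to 6.63 in brain, so lung and brain do not overlap. Without SNPs heterozygous in at least 10 fetuses the difference of AGRN between lung and kidney was 0.33 and not called (adjusted p = 0.160). That setting also takes such SNPs of all genes out of the scaling of the libraries, so it can move genes that have none. LTBP3 averaged 7.28, 6.70 and 4.73, higher by 2.55 ± 0.41 in lung than in brain (adjusted p = 2.21e-05) and by 1.97 ± 0.44 in kidney than in brain (adjusted p = 9.33e-04), with only 3 brains listed. Without overfed fetus 4 its difference between lung and kidney was also called (0.82, adjusted p = 1.74e-04, against 0.58 and 0.212 with it).

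LAMA4 had the largest difference between lung and kidney. It averaged 7.28 in 4 lungs (7.08 to 7.54) and 5.15 in 4 kidneys (4.84 to 5.49), higher in lung by 2.13 ± 0.20 (adjusted p = 1.15e-05), and the groups do not overlap. LAMA5 and COL6A3 were also higher in lung than in kidney, by 0.86 ± 0.20 (adjusted p = 0.00710) and 0.86 ± 0.24 (adjusted p = 0.0254). FBLN1 and ITGB5 were lower in lung than in kidney, with differences of -1.05 ± 0.24 (adjusted p = 0.00878) and -1.03 ± 0.31 (adjusted p = 0.0340). ITGB5 was also higher in kidney than in brain by 1.49 ± 0.34 (adjusted p = 0.00355). With the fetus as a replicate block the COL6A3 and ITGB5 differences between lung and kidney were no longer called (0.77, adjusted p = 0.0951, and -1.09, adjusted p = 0.0556). COL6A3 was also lost without control fetus 3 or overfed fetus 4, and ITGB5 without control fetus 1, control fetus 7 or restricted fetus 3 (adjusted p from 0.0563 to 0.0963). Without SNPs heterozygous in at least 10 fetuses COL6A3 was not called either (0.65, adjusted p = 0.0934). Its own listed SNPs were heterozygous in at most 8 fetuses. FRAS1 was not called between lung and kidney (adjusted p = 0.0907), but was called, lower in lung, without control fetus 4 (-1.09, adjusted p = 0.0211) and without SNPs heterozygous in at least 10 fetuses (-1.15, adjusted p = 0.0213).

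TIMP2 was the exception in direction, lower in lung than in brain (-0.42 ± 0.14, adjusted p = 0.0196) and in kidney than in brain (-0.66 ± 0.15, adjusted p = 5.86e-04), with averages of 6.43 in lung, 6.19 in kidney and 6.85 in brain. The lung difference was not called without control fetus 5 (-0.32, adjusted p = 0.0585), and without scaling of the libraries it turned to 0.16 (adjusted p = 0.721). The kidney difference was -0.33 without scaling and was not called (adjusted p = 0.508). FBLN1, ITGB5 and LAMA5 kept their direction between lung and kidney without scaling but were not called (adjusted p = 0.297, 0.101 and 0.101), nor was LTBP3 between kidney and brain (1.51, adjusted p = 0.0707). The scaling moved the median of all genes between lung and brain to -0.16, against 0.29 without scaling. No fibroblast or endothelial marker was listed in more than 5 libraries of a tissue, and the part of cell makeup in these differences was not tested.

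**Figure D4:**
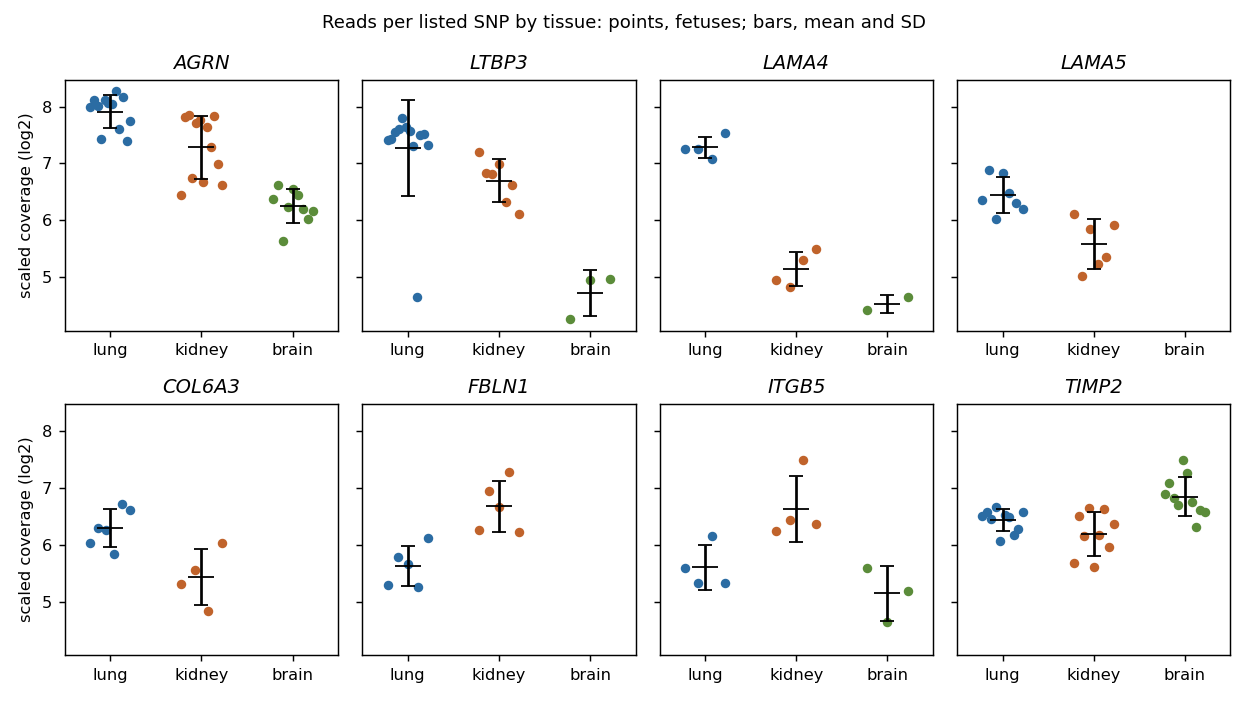
Scaled coverage (log2 of mean reads per listed SNP plus 1, y axis) of 8 members in lung, kidney and brain, 1 point per fetus, with mean and SD. AGRN, LTBP3 and LAMA4 are highest in lung, TIMP2 is highest in brain, and the low LTBP3 lung point is overfed fetus 4, listed through another SNP.

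No member was called in a comparison of ewe diets. Over 9 contrasts (overfed or restricted against control, and overfed against restricted, in each tissue) 42 tests of share and 42 of coverage on 14 members gave 0 calls with limma. None of the share tests and 2 of the coverage tests had an unadjusted p under 0.05. Over all genes 1 call was made, in share between restricted and control lungs (0.258% of that contrast and 0.0391% of all share tests), and the other contrasts had none (0.0%). Members were tested with 2 to 4 ewe numbers a diet, and a missed threshold does not show that diets acted alike.

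AGRN shares overlapped between diets in lung. They were 11.7% and 11.9% in overfed fetuses, 8.66%, 10.8%, 12.1% and 15.3% in restricted fetuses and 6.62% to 14.5% with a median of 11.1% in 6 control fetuses. On the log-ratio scale overfed minus control was 0.12 ± 0.20 (adjusted p = 0.995) and restricted minus control 0.10 ± 0.16 (adjusted p = 0.956). In brain AGRN was at 23.3% and 23.7% in overfed fetuses, 8.55%, 20.7% and 26.3% in restricted fetuses and 20.5%, 27.4%, 28.8% and 39.3% in control fetuses, and restricted minus control was -0.64 ± 0.40 (adjusted p = 0.813).

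LTBP2 in lung was at 84.5%, 86.0%, 86.2% and 86.3% in overfed fetuses, 85.5%, 88.5% and 90.2% in restricted fetuses and 77.6% to 90.7% with a median of 81.9% in 7 control fetuses. With littermates averaged the means were 85.7% (n = 4), 88.1% (n = 3) and 83.5% (n = 4). Restricted minus control was 0.35 ± 0.17 (adjusted p = 0.930), overfed minus control 0.15 ± 0.16 (adjusted p = 0.995) and overfed minus restricted -0.20 ± 0.18 (adjusted p = 0.855). All 3 groups overlap.

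LTBP3 in lung was at 23.5%, 27.1%, 29.9% and 74.3% in overfed fetuses, 24.4%, 25.6% and 27.3% in restricted fetuses and 23.7% to 29.2% in 5 control fetuses, and the overfed value of 74.3% is the fetus listed through another SNP. Its kidney coverage differed by -0.66 ± 0.25 between restricted and control fetuses (limma, adjusted p = 0.806, n = 3 and 2), and TIMP2 brain coverage by -0.52 ± 0.19 between overfed and control fetuses (limma, adjusted p = 0.964, n = 2 and 4). These are the 2 tests with an unadjusted p under 0.05. A single restricted fetus was listed for TIMP2, the one with the other paternal base, so no contrast with restricted fetuses was fitted. Whether a diet contrast differed between tissues was tested in 36 member and contrast combinations as an interaction, with 0 calls and 0 at an unadjusted p under 0.05. Adding the ram as a term gave 0 calls as well. Rams 1 and 2 sired no control fetus, and Ram 3 and Ram 4 sired fetuses of all diets.

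**Figure D5:**
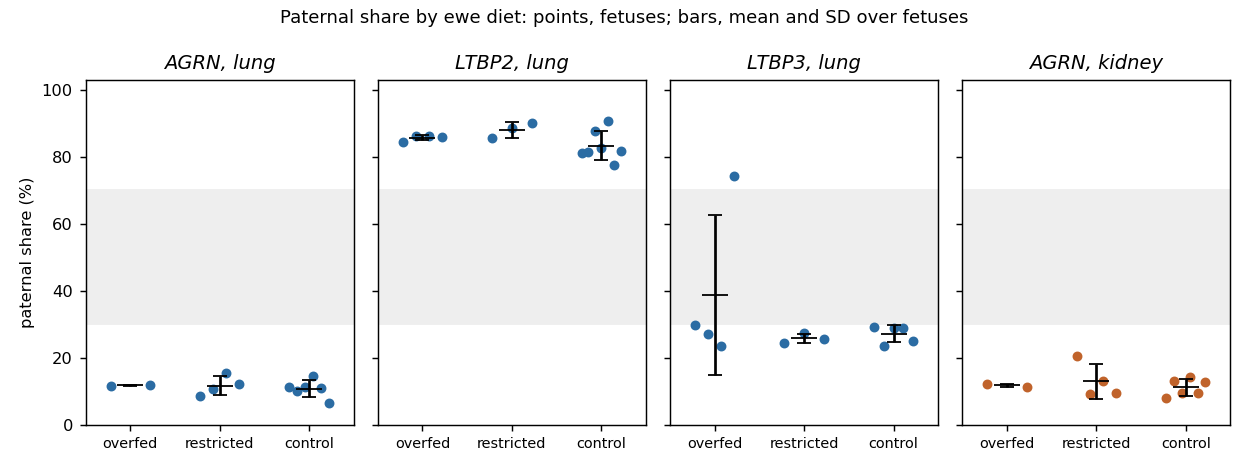
Paternal share (percent, y axis) by ewe diet for AGRN, LTBP2 and LTBP3 in lung and AGRN in kidney, 1 point per fetus, with mean and SD over fetuses and the 30% to 70% range shaded. The diets overlap in every panel, and the LTBP3 overfed point at 74.3% comes from a different SNP.

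Matrix genes outside the naming rule were also looked at, from a list of 68 of which 36 were listed. In lung 9 of 12 tested were called, 2 paternal and 7 maternal, against 60.9% of all tested genes, 21.7% paternal and 39.2% maternal. In kidney 6 of 8 and in brain 2 of 2 were called, all maternal, against 66% and 65.5% of all tested genes, 44% and 44.6% maternal. The counts were not tested against that background. ELN (elastin, the core of elastic fibres) had a paternal share of 20.4% in 13 lungs (adjusted p = 1.60e-09). PTK2 (focal adhesion kinase, which signals below integrins) had 6.49% in 11 lungs and 11.4% in 7 kidneys (adjusted p = 4.79e-07 and 8.66e-04), and FERMT2 (kindlin-2, an integrin activator) 17.5% in 11 lungs, 17.2% in 8 kidneys and 12.6% in 6 brains (adjusted p = 4.33e-08, 1.53e-05 and 8.68e-05). BMP1, the procollagen C-proteinase, had 26.1% in 10 lungs (adjusted p = 1.92e-05). The paternal calls were FREM1, a partner of FRAS1, at 77.1% in 4 lungs and TNXB (tenascin-X) at 78.7% in 3 (adjusted p = 0.00212 and 0.00814). No gene of that list was called in a diet contrast.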

How the data were processed

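RNA of 45 fetal libraries and DNA of 4 rams had been sequenced. Per the series text that comes with the labels, the values are means of 2 alignments, to a reference and an alternative genome, so what the authors deposited are estimated counts, and 65.3% of entries hold a value that is not whole. Tools named in the submitters' processing notes are Trimmomatic 0.33, HISAT2 2.0.5, SAMtools and Picard. Positions are as deposited, with build, variant caller and the samples of each sequencing run not given in the sources used here. The ram lists gave informative SNPs only.

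Reads were summed per gene and fetus over SNPs with at least 10 reads. Tests used limma 3.58.1 in R 4.3.3, with edgeR 4.0.16 on reads rounded to whole numbers as an alternative, fitted on all genes, with Benjamini-Hochberg adjustment. Tissue fits needed 3 fetuses a tissue and diet fits, on littermate means, 2 ewe numbers a diet. Fetuses were taken to share a ewe where the labels give the same number. Twin sets named in the labels number 3, and the numbers do not match them. Same-numbered libraries of different tissues come from the same fetus, and their deviations correlated with a median of 0.31 to 0.48 for share over 15 fetuses. Where nothing else is said, p-values measure the spread between these fetuses. The ram of a fetus was read from its ram lists. The model fits were tested on simulated data.

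The members and gene lists were chosen with earlier results of these data known. Collagen numbers of 2 digits (10 genes) were read as fitting the rule. Of the symbols, 75 of 76 were found in RefSeq, all on the deposited chromosome. Genes were named where called (up to 12 per tissue for bias by size, up to 6 per contrast), among the 10 with most entries, seen with either paternal base at a SNP, matched by symbol only, or, for LTBP2, named before in these data. Other genes given with values were chosen after these were seen. No sequence is printed, since none was used here, and values of 1 member are not reported here.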

Additional observations from a re-analysis of the deposited data

Results flagged for a closer look

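Of 29 gene and tissue groups of 4 to 10 fetuses among the genes named by the rule, 13 had a fetus whose distance from its nearest neighbour exceeded the 95% critical value of Dixon's test. Chance gives about 1 in 20 groups, and since single SNPs cannot lie between 30% and 70%, a lone fetus on the other side always stands far from the rest. In TIMP2 restricted fetus 2 was highest in lung (87.27%) and brain (84.29%), and in FBLN1 restricted fetus 1 was lowest in kidney (0.6944%) and lung (0.5848%), each being the 1 fetus with the other paternal base. The fetus that stood apart was on the other side from its group in ADAMTS15 lung (overfed fetus 3, 71.43%), COL4A3 kidney (control fetus 4, 74.47%), COL4A3 lung (restricted fetus 3, 20.41%), COL6A3 kidney (overfed fetus 2, 28.14%), FRAS1 brain (restricted fetus 1, 17.91%), LAMA5 kidney (overfed fetus 2, 70.49%) and LAMC3 kidney (overfed fetus 1, 26.51%). It was on the same side in COL21A1 lung (restricted fetus 1, 19.51%) and LAMA4 lung (overfed fetus 3, 16.93%), where the whole ranges are 19.5% to 28.8% and 15.7% to 16.9%.

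The paternal share of AGRN differed between tissues by limma, with kidney minus brain at -0.831 and lung minus brain at -0.901 on the log-ratio scale. The direction was that of C49428488A, in 6 of 6 fetuses for both differences, and not that of C49434731G, in 0 of 2.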

How the results depend on the processing

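At least 20.5 reads on a SNP and 70.02% of them on 1 allele are needed for an entry, which limits what can be seen of balanced or lowly expressed genes. Called members fell to 2 of 4 in brain with at least 30 reads per SNP, 2 without SNPs heterozygous in at least 10 fetuses, 2 against the median log ratio of all genes and 2 by the exact sign-flip permutation test, which could test 2. In kidney they were 3 without such SNPs and 2 by the sign-flip test against 7, and in lung 8 and 5 against 14. The sign-flip test takes genes with at least 6 fetuses, so fewer could be called. Leaving out 1 fetus gave 2 to 5 calls in brain (2 without overfed fetus 4), 4 to 8 in kidney (4 without restricted fetus 3) and 11 to 15 in lung, 2 to 2 in tissue share, 10 to 14 in tissue coverage and 0 to 0 in both diet comparisons. With the fetus as replicate block 2 tissue share calls remained in number and 11 of 13 tissue coverage calls. With matched SNPs as well, 1 share call was made. Coverage calls were 7 without scaling and 8 when scaled by the median reads per SNP, and TIMP2, lung minus brain, turned to 0.156 without scaling. The cause was not tested. Numbers shared between diets only name fetuses (median correlation of deviations -0.04, -0.02 and 0.05), and the fit with the number as replicate block gave 0 diet calls. Adding 1 read in place of 0.5, a pseudocount of 10 and fetuses as units changed no call of a named gene. Against the median log ratio LTBP3 and TIMP2 in brain (adjusted p = 0.0536 and 0.0649), ADAMTS15, LAMA5 and TIMP2 in kidney (0.0524, 0.328 and 0.208) were lost and ITGB5 and LAMC3 in kidney (0.0412 and 0.0361) gained, and ITGB5 in brain was lost with edgeR (0.0595).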
